A study of Mus musculus with 7 samples.

Results

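The genes of the solute carrier families that bring amino acids across the plasma membrane were followed in livers that lack miR-122. Members were all genes on the array whose symbol starts with Slc1a, Slc3a, Slc6a, Slc7a, Slc36a, Slc38a or Slc43a and a number, apart from Slc1a2 and Slc7a1, and only probe sets that name a single gene were used. The rule gave 61 genes, with 117 probe sets, of 18193 named genes on the array. By family these were 6 Slc1, 2 Slc3, 21 Slc6, 15 Slc7, 5 Slc36, 9 Slc38 and 3 Slc43 genes. The rule works by symbol, so 3 of the 61, Slc6a19os, Slc7a6os and Slc36a1os, are opposite-strand genes and no carriers. Others carry something else or sit elsewhere: Slc6a8 takes up creatine, Slc6a2, Slc6a3 and Slc6a4 take up monoamines, Slc43a3 is a nucleobase carrier, and Slc38a7 and Slc38a9 are known from the lysosome.

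The livers came from 4 mir-122 knockout mice, here called KO-03, KO-90, KO-91, KO-94, and from 3 wild-type mice, WT-27, WT-103, WT-104, all 2 months old and of B6/129 background, with 1 array per animal. The labels do not say how the allele was made, in which cells it acts, or the sex of the animals. The tissue is whole liver, so each value is a mean over hepatocytes and all other liver cells. Values are log2 expression, as deposited, so a difference of 1 is a doubling.

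Liver cells take up amino acids from portal blood for protein synthesis, glucose production and nitrogen disposal, and release glutamine and glutamate. Each family uses its own driving force. The glutamate carriers of Slc1 use sodium and potassium gradients. Slc6 carriers use sodium and chloride, Slc36 carriers protons and Slc38 carriers sodium, whereas Slc43 carriers let large neutral amino acids flow down their gradient. Most Slc7 light chains are exchangers that reach the membrane only when bound to a heavy chain, Slc3a1 or Slc3a2, and several carriers are known targets of the transcription factor ATF4, which responds to amino acid shortage. miR-122 is the dominant microRNA of hepatocytes.

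Arrays were close to each other over all genes, with Pearson correlations of 0.979 to 0.992 among knockouts and 0.989 to 0.991 among wild types. On the first principal component KO-03 lay nearest to the wild types and WT-104 nearest to the knockouts. A floor for levels was taken from 27 bacterial control probe sets, as the highest of them on each array, 4.71 to 5.23. No probe set reports miR-122, so the genotypes were not checked against the deleted gene. Of 9 measured hepatocyte markers, among them Alb, Apoa1 and Cyp2e1, none passed the test (limma adjusted p at least 0.0533) and all lay above the floor on all 7 arrays. The lowest adjusted p was that of Tat, which averaged 13.24 in knockout and 12.34 in wild type. All knockouts lay above all wild types for Tat. It passed in some alternatives: without WT-104, with a trended prior, with array weights and with a filter on dim genes.

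Few carrier genes differed. Of the 61 members, 2 rose in knockout liver and 0 fell: Slc43a2, a carrier of large neutral amino acids, and the creatine carrier Slc6a8. The other 59 did not pass. Among all genes 2.58% were called higher and 0.951% lower, 3.53% in either direction, and the members' share in either direction was 3.28%, so the count of members called is about that of the array at large. An unadjusted p under 0.05 was found for 10 members, 6 of them higher and 4 lower, which is 16.4% and the same share as over all genes (16.4%). Every knockout array lay above every wild-type array for 3 members (9.15% of all genes) and below for 5 (6.62% of all genes). These 8 members are 13.1%, against 15.8% of all genes. Of the 5 that lay below, Slc6a19os, which is no carrier, and Slc7a3 were at or under the floor on every array. Slc6a21 was above it on wild-type arrays only. The median difference was -0.02 over the members and 0.01 over all genes. The test was limma with Benjamini-Hochberg adjustment over all 18193 genes at a threshold of 0.05.

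**Figure D1:**
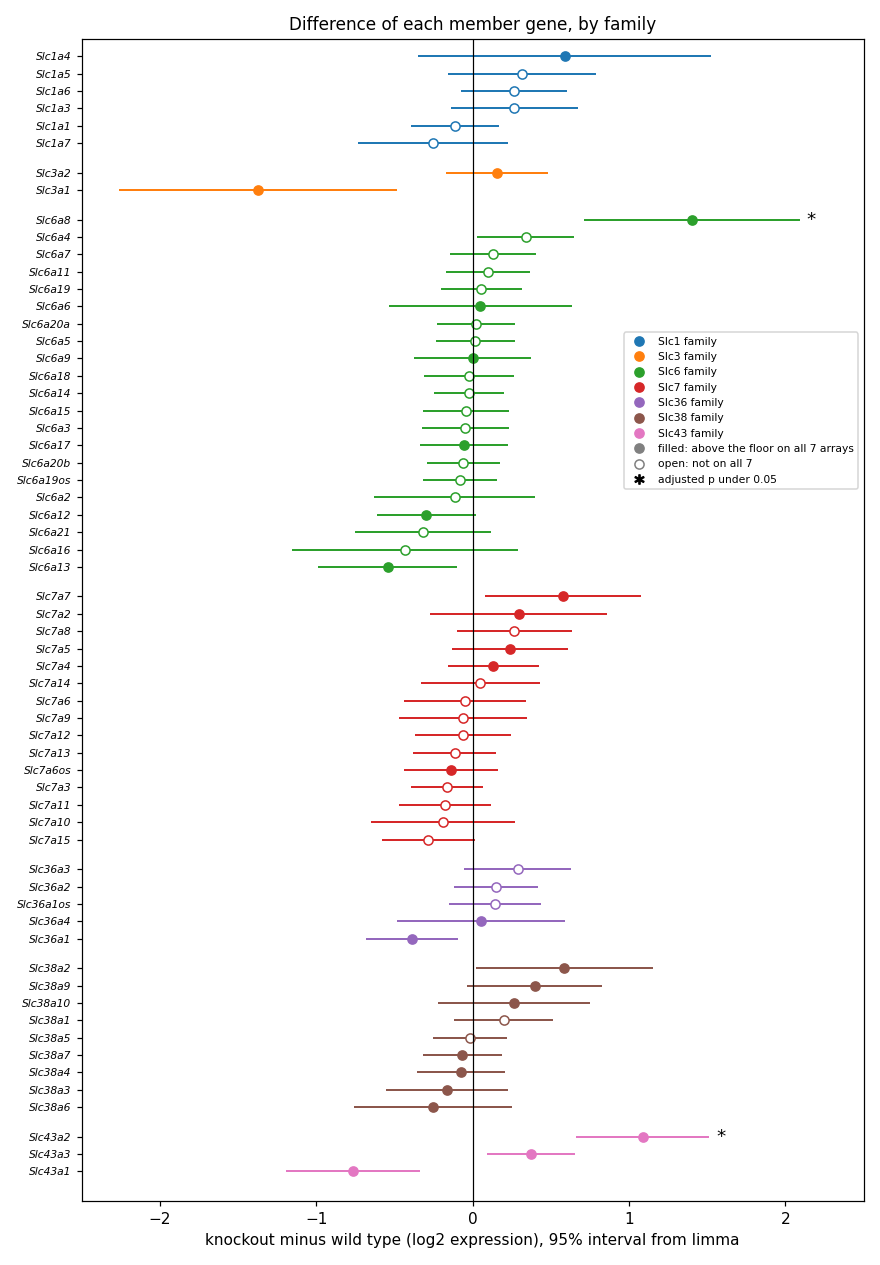
Knockout minus wild type on the log2 scale (points) with the 95% interval from limma (lines) for the 61 member genes, ordered by difference within each family. Slc43a2 and Slc6a8, marked with an asterisk, passed the test, and Slc3a1 lies farthest to the left at -1.37.

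How many members liver shows at all sets what could be seen. Above the floor on all 7 arrays were 26 members (54.5% of all genes), 11 were above it on some arrays, and 24 lay at or under it on every array (33.6% of all genes). Those 24 ranged from 2.60 to 5.04 over all arrays and their differences from -0.28 to 0.27. A level at or under the floor does not show that a transcript is missing. Because probe sets bind with different strength, the levels of different genes are not ranked here.

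The 3 Slc43 genes were the family in which every member's groups stayed apart, though not all in the same direction. Over all genes the groups stayed apart for 15.8%, and this small family was picked out by its values. Slc43a2, which codes for LAT4, a carrier that lets branched-chain amino acids, phenylalanine and methionine pass, had 6.67 in KO-03, 7.20 in KO-90, 7.29 in KO-91 and 7.41 in KO-94, against 6.15 in WT-27, 5.83 in WT-103 and 6.18 in WT-104. All 4 knockouts lay above all 3 wild types, with KO-03 the lowest knockout. Slc43a2 averaged 7.14 ± 0.32 in knockout (SD, n = 4) and 6.06 ± 0.20 in wild type (SD, n = 3), a 2.13-fold difference (1.09 ± 0.19 SE on the log2 scale, limma adjusted p = 0.0168). In bulk liver, more of a transcript per cell and more cells that carry it cannot be told apart. A second probe set of Slc43a2 had 5.15 to 6.11 in knockout and 4.78 to 4.83 in wild type, where only 1 of 3 arrays was above the floor, and differed by 1.01 (adjusted p = 0.0523 when limma ran over all probe sets), while the remaining one never reached the floor.

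Slc43a1, which codes for LAT3, the second system L carrier of this family, pointed the other way without passing the test. It averaged 5.37 ± 0.25 in knockout (SD, n = 4) and 6.13 ± 0.32 in wild type (SD, n = 3), a difference of -0.76 ± 0.19 (SE, limma adjusted p = 0.0641), and its highest knockout, 5.58 in KO-90, lay below its lowest wild type, 5.77 in WT-27. It passed when the values were quantile normalized again (limma adjusted p = 0.0410), when each array was centred on its median (0.0457), with array weights (0.0308) and without WT-27 (0.0492). Slc43a3, the nucleobase carrier, averaged 7.78 ± 0.10 in knockout (SD, n = 4) and 7.40 ± 0.18 in wild type (SD, n = 3), a difference of 0.37 (limma adjusted p = 0.154). Its lowest knockout was 7.67 and its highest wild type 7.61, so the gap between the groups was narrow.

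The stretch of genome before the start of Slc43a2, the member with the smallest p, is shown as it stands in RefSeq (GRCm38.p6, chr11:75531444-75531693, plus strand, the 250 bases before the first of its 2 annotated starts). It is rich in G and C, as many promoters are.
Slc43a2: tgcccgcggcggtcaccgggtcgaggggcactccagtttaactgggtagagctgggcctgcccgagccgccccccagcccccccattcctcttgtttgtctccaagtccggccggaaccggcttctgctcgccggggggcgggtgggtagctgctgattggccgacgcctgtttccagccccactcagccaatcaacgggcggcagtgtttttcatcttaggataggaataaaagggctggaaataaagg

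Slc6a8 was the Slc6 gene that rose. It had 6.45 in KO-03, 7.47 in KO-90, 7.44 in KO-91 and 7.78 in KO-94, against 5.65 in WT-27, 6.30 in WT-103 and 5.70 in WT-104. The groups did not overlap, but KO-03 lay close above WT-103. Slc6a8 averaged 7.29 ± 0.58 in knockout (SD, n = 4) and 5.88 ± 0.37 in wild type (SD, n = 3), a 2.65-fold difference (1.40 ± 0.30 SE on the log2 scale, limma adjusted p = 0.0413). Its second probe set cleared the floor everywhere and had 6.07, 6.65, 6.70 and 7.45 in the knockouts and 5.67, 5.32 and 5.38 in the wild types. Over all probe sets, the second differed by 1.26 (limma adjusted p = 0.0554) and the first just missed the threshold (0.0529).

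Among the Slc6 carriers of GABA, betaine, taurine and glycine, none passed. Slc6a13, the hepatic carrier of GABA and taurine, averaged 9.78 ± 0.36 in knockout (SD, n = 4) and 10.33 ± 0.15 in wild type (SD, n = 3), a difference of -0.54 (limma adjusted p = 0.194). KO-90, at 10.25, reached the wild-type range, which began at 10.23, and the other 3 knockouts were at 9.49 to 9.90. Slc6a12, the betaine carrier, averaged 7.95 ± 0.21 in knockout (SD, n = 4) and 8.25 ± 0.09 in wild type (SD, n = 3), with KO-90 again within the wild-type range. The taurine carrier Slc6a6 averaged 9.82 ± 0.43 in knockout (SD, n = 4) and 9.77 ± 0.40 in wild type (SD, n = 3), with a 95% interval of the difference from -0.53 to 0.63. The glycine carrier Slc6a9 averaged 8.39 ± 0.21 in knockout (SD, n = 4) and 8.39 ± 0.26 in wild type (SD, n = 3), with an interval from -0.37 to 0.37.

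The remaining Slc6 genes were dim. Slc6a17, a vesicle carrier of neurons, was the only other one above the floor on all arrays and averaged 5.81 in knockout and 5.86 in wild type. The serotonin carrier Slc6a4 averaged 5.33 ± 0.19 in knockout (SD, n = 4) and 4.99 ± 0.13 in wild type (SD, n = 3), where 2 of 3 arrays were above the floor (limma adjusted p = 0.246). The orphan Slc6a16 averaged 5.17 ± 0.65 in knockout (SD, n = 4) and 5.60 ± 0.28 in wild type (SD, n = 3). It did not pass (limma adjusted p = 0.564), but without KO-03, its highest array at 6.11, it differed by -0.75 and did (0.0387). Only 2 of its 4 knockout arrays, KO-03 and KO-91, were above the floor. KO-90 and KO-94, at 4.68 and 4.83, lay under it, so the fit without KO-03 rests largely on signal under the floor. Slc6a2, Slc6a19 and Slc6a21 were above the floor on some arrays, and 10 others, among them the intestinal and renal neutral amino acid carriers Slc6a18, Slc6a20a and Slc6a20b, lay at or under it on every array.

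**Figure D2:**
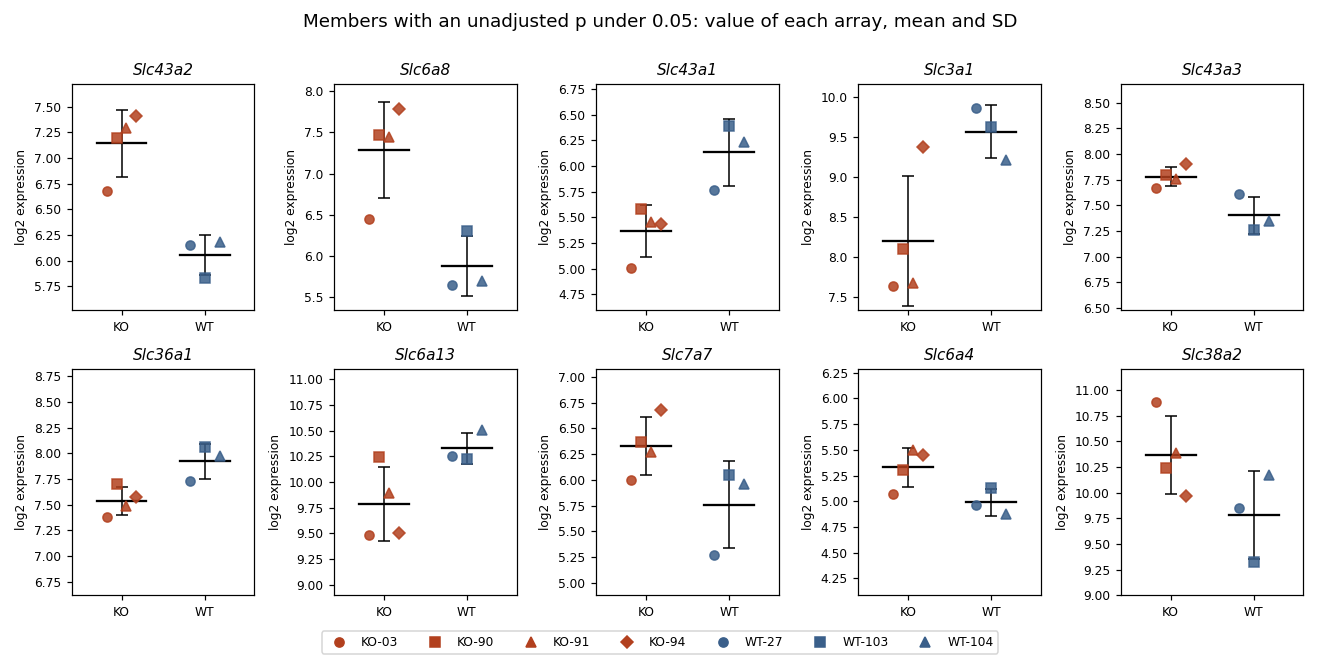
Log2 expression of each array for the 10 members with an unadjusted p under 0.05, ordered by p, with KO arrays left of WT arrays, horizontal lines for the mean and bars for the SD. The groups do not overlap in Slc43a2, Slc6a8, Slc43a1, Slc43a3 and Slc36a1, and in Slc3a1 only KO-94, at 9.37, lies among the wild types.

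The heavy chains and their light chains did not pass the test. Slc3a1, the heavy chain of the cystine and dibasic amino acid carrier, had the largest negative difference of any member. It stood at 7.63 in KO-03, 8.10 in KO-90, 7.67 in KO-91 and 9.37 in KO-94, against 9.86 in WT-27, 9.63 in WT-103 and 9.21 in WT-104. Thus 3 knockouts lay more than 1 log2 unit below the lowest wild type and KO-94 lay within the wild-type range. The difference was -1.37 ± 0.39 (SE, limma adjusted p = 0.106) with all arrays and -1.77 without KO-94 (limma adjusted p = 0.00483). Array weights also gave a call (-1.66, limma adjusted p = 0.0113). Slc7a9, its light chain in kidney and gut, lay under the floor on all arrays.

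Slc3a2, the heavy chain CD98, averaged 9.15 ± 0.21 in knockout (SD, n = 4) and 8.99 ± 0.15 in wild type (SD, n = 3), with a 95% interval of the difference from -0.17 to 0.47. Of its light chains, Slc7a5, the exchanger LAT1, averaged 6.02 ± 0.29 in knockout (SD, n = 4) and 5.78 ± 0.055 in wild type (SD, n = 3). KO-90 and KO-94, at 6.199 and 6.332, were above all wild types, and KO-03 and KO-91, at 5.75 and 5.78, were within their range. Slc7a7, which exports cationic amino acids, averaged 6.33 ± 0.28 in knockout (SD, n = 4) and 5.76 ± 0.42 in wild type (SD, n = 3). The difference was 0.58 (limma adjusted p = 0.222), and KO-03 at 6.00 lay below WT-103 at 6.04. In its second probe set, above the floor everywhere, all knockouts, 5.97 to 6.21, lay above all wild types, 5.55 to 5.92. That probe set differed by 0.32 (adjusted p = 0.291 when limma ran over all probe sets). Slc7a8 was above the floor on 1 array, KO-94, and Slc7a6, Slc7a10 and the cystine-glutamate exchanger Slc7a11 on none.

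Of the cationic carriers that need no heavy chain, Slc7a2, the main arginine carrier of hepatocytes, was far above the floor. It had 11.83 in KO-03, 11.11 in KO-90, 11.19 in KO-91 and 10.60 in KO-94, against 11.04 in WT-27, 10.83 in WT-103 and 10.80 in WT-104. KO-94 was below all wild types and the other knockouts above them, and the 95% interval of the difference ran from -0.26 to 0.85. Slc7a4, a relative with no settled substrate, averaged 6.79 ± 0.12 in knockout (SD, n = 4) and 6.66 ± 0.18 in wild type (SD, n = 3), and Slc7a3 was under the floor. The light chain Slc7a13 was above the floor on 2 of 4 knockout and 3 of 3 wild-type arrays, and Slc7a12, Slc7a14 and Slc7a15 were above it on none.

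The Slc1 family was dim and mixed. Slc1a4, the neutral amino acid exchanger ASCT1, spread more among knockouts than among wild types. Its probe set with the highest mean had 5.33 in KO-03, 7.12 in KO-90, 5.59 in KO-91 and 6.73 in KO-94, against 5.28 in WT-27, 5.90 in WT-103 and 5.64 in WT-104. KO-90 and KO-94 stood above all wild types and KO-03 and KO-91 among them, and the difference was 0.59 ± 0.41 (SE, limma adjusted p = 0.542). The other probe sets of Slc1a4 differed by 0.98 and 0.77 (adjusted p = 0.159 and 0.252 when limma ran over all probe sets), and in the first of them all knockouts, 5.54 to 6.84, lay above all wild types, 4.97 to 5.50. Slc1a5, the glutamine exchanger ASCT2, was above the floor on 1 array, KO-94 at 5.53. The glutamate carriers Slc1a1, Slc1a3 and Slc1a6 lay under it on every array, and Slc1a7 was above it on 1 of 4 knockout and 2 of 3 wild-type arrays.

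Because ATF4 acts through a short amino acid response element, the letters TGATGNAA were sought on both strands in RefSeq promoter windows of 300 bases (GRCm38.p6, 250 before and 50 after each annotated start). Windows were found for 44 of the 61 members, and 4 genes held a match, 9.09%, against 4.51% of all 27025 genes with a window. The 44 members had 64 windows and the 27025 genes 32851, so members had more windows per gene in which to match. Of all windows, 3.97% held a match. The 30-base stretches are given 5′ to 3′ on the gene's strand, with the match in capitals. They are shown for the exchangers of this group beside Asns, whose element is the textbook case, and letters read as the reverse complement of the motif lie on the opposite strand. Slc43a2 held no match.
Slc1a4 (chr11:20332699-20332728, minus strand): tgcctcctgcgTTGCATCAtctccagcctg
Slc7a11 (chr3:50443661-50443690, minus strand): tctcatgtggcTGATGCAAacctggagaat
Slc7a11 (chr3:50443642-50443671, minus strand): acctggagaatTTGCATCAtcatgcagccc
Slc7a7 (chr14:54418067-54418096, minus strand): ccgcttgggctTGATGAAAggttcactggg
Slc7a7 (chr14:54417927-54417956, minus strand): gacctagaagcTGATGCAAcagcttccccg
Asns (chr6:7693214-7693243, minus strand): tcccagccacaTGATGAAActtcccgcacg
The fourth member with a match was Slc6a21. None of the 4 members was called, Slc7a11 and its probe sets were under the floor, and Asns rose by 3.37 ± 0.20 (SE, limma adjusted p = 0.000333). A match of letters is a description and does not show binding.

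The Slc38 family holds the sodium-coupled carriers of glutamine, alanine and other neutral amino acids, and none of its 9 members passed. Slc38a2, the carrier SNAT2 that cells raise when amino acids run short, had 10.88 in KO-03, 10.24 in KO-90, 10.39 in KO-91 and 9.97 in KO-94, against 9.85 in WT-27, 9.32 in WT-103 and 10.17 in WT-104. KO-94 lay below WT-104, so the groups overlapped, and the difference was 0.59 ± 0.25 (SE, limma adjusted p = 0.278). A second probe set of Slc38a2, which also cleared the floor everywhere, differed by -0.06. Slc38a3, the glutamine carrier SNAT3 of hepatocytes, averaged 12.31 ± 0.31 in knockout (SD, n = 4) and 12.48 ± 0.11 in wild type (SD, n = 3), with a 95% interval of the difference from -0.55 to 0.22. Slc38a4, the liver-rich carrier SNAT4, averaged 12.03 ± 0.15 in knockout (SD, n = 4) and 12.10 ± 0.11 in wild type (SD, n = 3), with an interval from -0.35 to 0.20. For both, these intervals, each from the 1 probe set used for the gene, leave room for a difference of less than 1 log2 unit either way. A second probe set of each also cleared the floor everywhere. That of Slc38a3 differed by -0.50 ± 0.28 (SE, adjusted p = 0.478 when limma ran over all probe sets), which allows a wider range. That of Slc38a4 differed by -0.16 ± 0.27 (SE, adjusted p = 0.845 in the same fit).

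Slc38a9, the lysosomal carrier that senses arginine for mTORC1, averaged 6.69 ± 0.36 in knockout (SD, n = 4) and 6.29 ± 0.12 in wild type (SD, n = 3), a difference of 0.40 (limma adjusted p = 0.339). KO-03 and KO-91, at 7.09 and 6.86, lay well above the wild types, and KO-90, at 6.29, among them. Slc38a10 averaged 10.01 ± 0.38 in knockout (SD, n = 4) and 9.75 ± 0.25 in wild type (SD, n = 3), and 5 of its other 6 probe sets were above the floor and differed by -0.04 to 0.26. Slc38a6 and the lysosomal Slc38a7 differed by -0.25 and -0.07, and Slc38a1, above the floor on 4 of 4 knockout and 2 of 3 wild-type arrays, by 0.20. Slc38a5 lay under the floor on all arrays.

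Of the proton-coupled Slc36 carriers, Slc36a1, which releases small amino acids from lysosomes and also works at the cell surface, was lower without passing the test. It had 7.38 in KO-03, 7.70 in KO-90, 7.48 in KO-91 and 7.58 in KO-94, against 7.73 in WT-27, 8.06 in WT-103 and 7.97 in WT-104. All knockouts lay below all wild types, KO-90 narrowly, and the difference was -0.39 ± 0.13 (SE, limma adjusted p = 0.161). Slc36a4 averaged 6.77 ± 0.48 in knockout (SD, n = 4) and 6.72 ± 0.11 in wild type (SD, n = 3), with KO-94 highest at 7.39 and KO-03 lowest at 6.22. Slc36a2 was under the floor and Slc36a3 above it on 1 array. Of the opposite-strand genes, Slc7a6os was above the floor on all arrays, at 5.46 in knockout and 5.59 in wild type on average, and the other 2 on none.

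**Figure D3:**
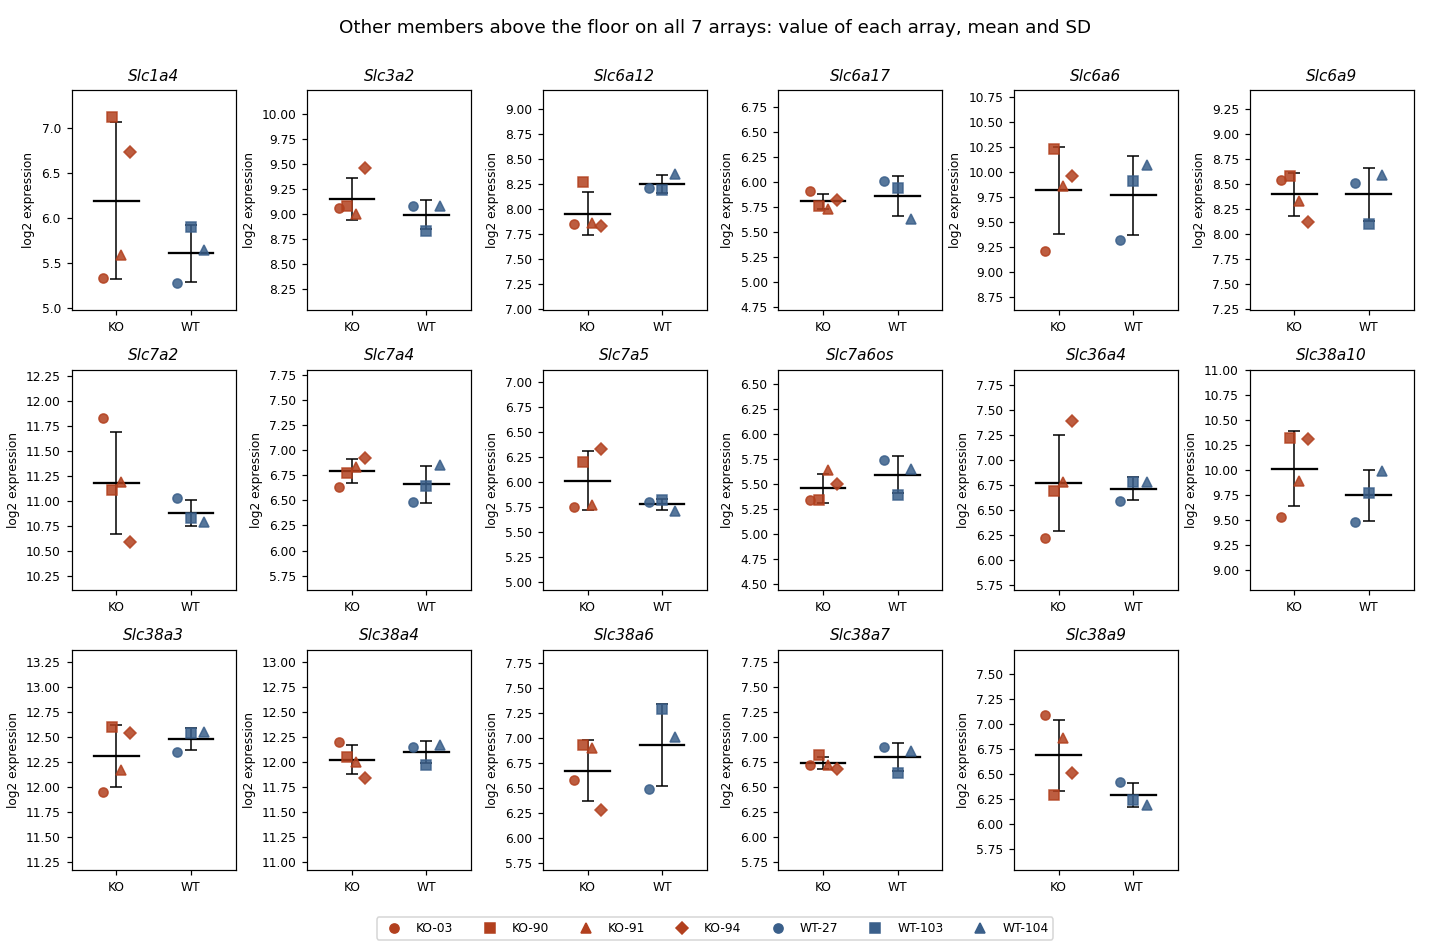
Log2 expression of each array for the 17 other members above the floor on all 7 arrays, with KO arrays left of WT arrays, horizontal lines for the mean and bars for the SD. Slc38a3, Slc38a4 and Slc6a9 overlap closely between genotypes, and in Slc1a4 KO-90 and KO-94 stand apart from KO-03 and KO-91.

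Several probe sets were at hand for 30 members. Of their 56 further probe sets, 29 were above the floor on no array and 22 were above it on every array. Of these 22, 16 differed in the direction of the probe set that stands for the gene and 6 in the opposite direction: -0.06 for Slc38a2, -0.04 for Slc38a10, -0.01 for Slc6a6, -0.01 for Slc7a2, 0.03 for Slc6a9 and 0.15 for Slc6a17. Another probe set of Slc7a2, at 7.04 to 7.60 in knockout against 6.90 to 6.98 in wild type, had all knockouts above all wild types and differed by 0.41 (adjusted p = 0.230 in the same fit of every probe set).

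**Figure D4:**
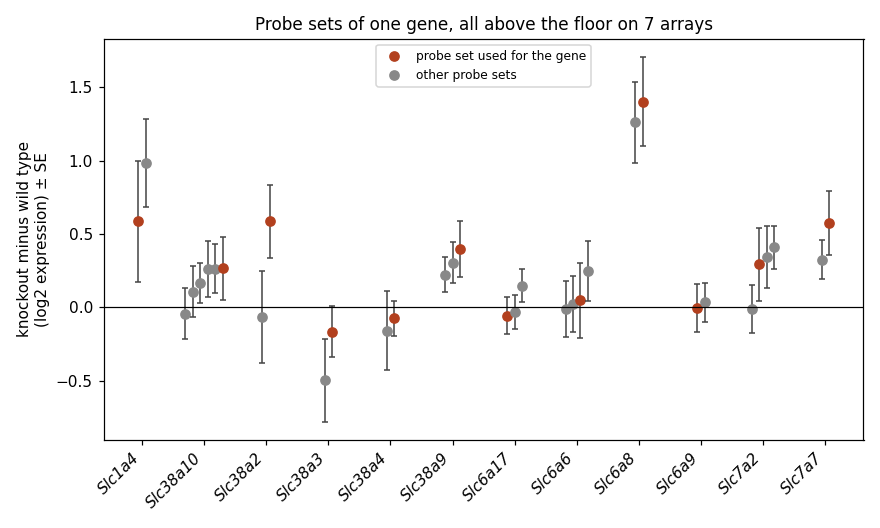
Knockout minus wild type on the log2 scale, with bars for the SE, of each probe set above the floor on all 7 arrays, for the 12 members with more than 1 such probe set. Both probe sets of Slc6a8 lie above 1, and those of Slc38a2 disagree, at 0.59 and -0.06.

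The calls rested on few animals. Slc43a2 kept its call in 3 of 7 fits that left out 1 array, without KO-03, KO-94 or WT-104, and lost it without KO-90, KO-91, WT-27 or WT-103, at limma adjusted p of 0.0533, 0.0580, 0.0523 and 0.0884. Its difference stayed between 0.97 and 1.24 in these fits. Slc6a8 kept its call in 1 of 7, without KO-03, where its difference was 1.68 (limma adjusted p = 0.00253), and in the other 6 its adjusted p was 0.0793 to 0.142 with differences of 1.24 to 1.61. The count called higher was thus 0 without KO-90, KO-91, WT-27 or WT-103, 1 without KO-94 or WT-104, and 2 without KO-03.

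**Figure D5:**
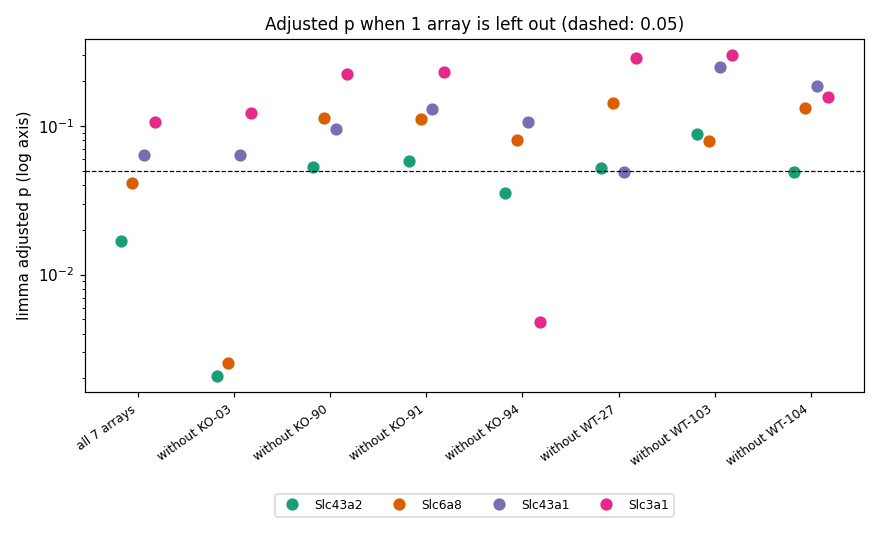
Limma adjusted p (log axis) of Slc43a2, Slc6a8, Slc43a1 and Slc3a1 with all 7 arrays and without each array, with a dashed line at the threshold of 0.05. Slc3a1 lies under the line only without KO-94, and Slc43a2 and Slc6a8 are lowest without KO-03.

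The pair of carriers set aside by the rule stand beside these as follows. The glutamate carrier Slc1a2, at 9.63, 10.80, 10.36 and 9.27 in the knockouts (same animal order) and 8.51, 8.66 and 8.32 in the wild types, rose by 1.52 ± 0.32 (SE, limma adjusted p = 0.0400), a call lost without KO-90, KO-91 or any wild-type array (limma adjusted p up to 0.129). The arginine carrier Slc7a1, a published miR-122 target, averaged 6.06 ± 0.41 in knockout (SD, n = 4) and 5.29 ± 0.20 in wild type (SD, n = 3), where 2 of 3 arrays were above the floor, and did not pass (limma adjusted p = 0.103), though it did without KO-03 (0.00621).

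In neighbouring gene lists the share called lay above the 3.53% of all genes, but it rested on 1 to 5 genes a list, most of them lost in at least 1 of the 7 fits that left out an array. These lists also hold fewer dim genes than the array. Above the floor on all 7 arrays were 54.5% of all genes and a larger share of each list. The share called among equally bright genes was not computed. Of 24 measured carriers of amino acids, peptides and related compounds in other families, 1 rose and 1 fell (8.33%). Slc16a10, which lets aromatic amino acids leave and enter cells, had 9.24 in KO-03, 9.39 in KO-90, 9.13 in KO-91 and 9.49 in KO-94, against 8.37 in WT-27, 8.49 in WT-103 and 8.58 in WT-104, and rose by 0.83 ± 0.12 (SE, limma adjusted p = 0.00888). All knockouts lay above all wild types, and the call was lost only without WT-103 among the fits that left out 1 array (limma adjusted p = 0.0531). The choline carrier Slc44a1 fell by 0.62 ± 0.13 (SE, limma adjusted p = 0.0347), a call kept without KO-03 and lost without any 1 of the other 6 arrays (limma adjusted p up to 0.160) and when its probe sets were averaged.

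Of 25 genes of the amino acid stress response, Asns and Atf3 rose and 0 fell (8.0%), with a list median of 0.19 against 0.01 over all genes. Asns, which makes asparagine, stood at 9.65, 8.93, 9.27 and 8.81 in the knockouts and 5.81, 5.65 and 5.91 in the wild types, a gap far wider than for any carrier named here, and it stayed called without any 1 array. The transcription factor Atf3 was not above the floor in wild type and rose by at least 0.61 (limma adjusted p = 0.0332), a call lost without KO-90, KO-91 or any wild-type array (limma adjusted p up to 0.128). Of 18 cytosolic tRNA synthetases, Sars rose by 0.56 and Tars fell by 0.75 (limma adjusted p = 0.0440 and 0.0240), with a median of 0.0006 and 11.1% called. Sars was called in none of the 7 fits without 1 array (limma adjusted p 0.0525 to 0.189), nor under median centring, and Tars was lost without KO-90, KO-91, WT-27 or WT-103 (up to 0.110).

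Of 23 genes of amino acid breakdown and the urea cycle, 1 rose and 4 fell (21.7%), with a median of -0.20, and the groups did not overlap for 52.2% of the list, against 15.8% of all genes. All 23 were above the floor on all 7 arrays, against 54.5% of all genes. The count that fell was 0 without WT-27 or WT-103, 1 without KO-91 or WT-104, and 3 or 4 without another array, and Bcat2 was lost without WT-103 or WT-104. The branched-chain aminotransferase Bcat2 rose by 1.55 ± 0.25 (SE, limma adjusted p = 0.0131). The glycine-cleaving enzyme Gldc fell by 1.20 ± 0.19 (SE, limma adjusted p = 0.0127) and the urea cycle enzyme Asl by 0.81 ± 0.15 (SE, limma adjusted p = 0.0260), and Asl kept its call in 2 of 7 fits without 1 array. Of 16 genes of glutamine and glutamate metabolism, the ornithine aminotransferase Oat and the hexosamine enzyme Gfpt1 rose by 1.03 and 1.04 (limma adjusted p = 0.00253 and 0.0361) and 0 fell (12.5%), with a median of -0.0022. Oat stayed called without any 1 array and Gfpt1 was lost in 5 of 7 such fits (limma adjusted p up to 0.153). Of 23 genes of amino acid sensing and mTORC1, the GTPase Rragd, not above the floor in wild type, rose by at least 1.28 (limma adjusted p = 0.0413), 0 fell (4.35%) and the median was 0.01. The Rragd call was kept without KO-03, lost without any 1 of the other 6 arrays (limma adjusted p up to 0.177), and lost with a robust prior, with its probe sets averaged and with every probe set on its own, while the filter on dim genes left it out.

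Some markers of other liver cells moved with genotype, and their part in the rises of Slc43a2 and Slc6a8 was not tested. Of 7 measured bile duct cell markers 4 rose and 0 fell, with list means of 5.16 to 6.28 over the knockout arrays and 4.19 to 4.46 over the wild-type arrays, and with Cftr and Krt7 at or under the floor of each array. Of 11 stellate cell markers 6 rose and 0 fell, with list means of 7.99 to 8.51 in knockout and 7.33 to 7.51 in wild type. Of 10 macrophage markers 1 rose and 0 fell (8.37 to 9.003 in knockout and 7.80 to 8.32 in wild type), and of 7 neutrophil markers 2 rose and 0 fell (5.69 to 6.51 in knockout and 4.75 to 5.14 in wild type). The genes called were Cd14 among macrophage markers and S100a8 and S100a9 among neutrophil markers. The median difference was 1.39 for bile duct, 0.90 for stellate, 0.40 for macrophage and 0.22 for neutrophil markers. Of 10 endothelial, 9 lymphoid and 4 erythroid markers, none passed. When 1 array was left out, the counts that rose were 2 to 4 for bile duct, 3 to 6 for stellate, 0 to 2 for macrophage and 0 to 2 for neutrophil markers, with the fewest without WT-103 in each. KO-03, the lowest knockout for Slc43a2 and Slc6a8, had the lowest list mean of the knockouts for bile duct, stellate and macrophage markers, whereas for neutrophil markers it was second highest, at 6.27 against 5.69 in KO-90, 5.72 in KO-91 and 6.51 in KO-94.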

How the data were processed

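The authors deposited log2 expression per probe set. Per the submitters' processing notes and the design text of the series, Partek was used with RMA, a method that normalizes all arrays together. Neither a version nor the probe definitions behind it were found in the labels. The number of arrays limits the precision. Of 45101 probe sets, 34945 had 1 gene symbol in the platform annotation and were no controls. For each gene the brightest probe set on average over the 7 arrays was taken, a rule that can favour one that is higher in knockout. Genotypes came from the titles. Whether animals were littermates is not given.

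A two-sided limma test (version 3.58.1, run in R 4.3.3, lmFit then eBayes) without covariates compared the genotypes over 18193 genes, with Benjamini-Hochberg adjustment. On simulated data with 200 changed genes in 18193, it recovered 87.2% of changes of 1 on the log2 scale. The simulated noise was normal and independent between arrays, with no array effects and no outlying animals. That share may therefore be too high for these livers. The members and lists were chosen with earlier results of these data known. Members were named where called, where the unadjusted p was under 0.05, or where above the floor, and the others by count; list genes were the 3 called with the smallest p. Slc6a16, the probe sets described and dim members were picked by their values. P-values measure only the spread between these animals. Alternatives were another prior, array weights, renewed normalization or centring, a filter on dim genes, other ways to choose probe sets and leaving out arrays. Figures used matplotlib 3.10.9.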

Additional observations from a re-analysis of the deposited data

Results flagged for a closer look

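In 4 of 61 members 1 knockout array stood apart from the other 3 by Dixon's test, where chance gives about 1 in 20. Slc3a2 was 9.45 in KO-94 and 8.998 to 9.073 in the other knockouts. Slc6a12 was 8.28 in KO-90 and 7.83 to 7.86 in the others. Slc6a21, with 0 of 4 knockout arrays above the floor, was 3.97 in KO-90 and 4.67 to 4.75 in the others, and Slc38a5, under the floor on all arrays, was 3.18 in KO-94 and 3.07 to 3.08 in the others. Groups of 3 arrays were not checked.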

How the results depend on the processing

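The count of members called higher, 2, was 0 to 2 when 1 array was left out and 1 when every probe set was tested on its own, and it stayed 2 in the other 9 alternatives. The count called lower, 0, was 2 with array weights (Slc3a1 and Slc43a1), 1 with renewed quantile normalization and 1 with median centring (Slc43a1 in both), 0 to 1 when 1 array was left out, and 1 (Slc6a16) without KO-03 and WT-104 together, a setting chosen after seeing the data. Over all genes, 470 were called higher and 173 lower. With array weights these were 909 and 344, when 1 array was left out 132 to 892 and 37 to 252, and without KO-03 and WT-104 together 724 were higher. The 10 differences with an unadjusted p under 0.05 kept their direction in all alternatives that tested them; the filter on dim genes left out Slc43a1 and Slc6a4. No paired analysis was possible because the animal numbers do not recur between genotypes. The causes of these shifts were not tested. Signal near the floor limits what can be seen of 35 members.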
